A study of Mus musculus with 9 samples.

Results

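The interferon-inducible GTPases of fetal mouse pulmonary lymphatic endothelial cells (PLECs) were followed through late gestation. The family was taken as 10 named genes, 5 guanylate-binding proteins (*Gbp2*, *Gbp3*, *Gbp4*, *Gbp5* and *Gbp7*) and 5 immunity-related GTPases (*Igtp*, *Irgm1*, *Irgm2*, *Iigp1* and *Ifi47*), and each was found by its Entrez number among the 25206 genes of the arrays. The numbers were 14469, 55932, 17472, 229898 and 229900 for the GBPs and 16145, 15944, 54396, 60440 and 15953 for the immunity-related GTPases, in that order. RNA of sorted PLECs had been hybridised to Affymetrix Mouse Gene 2.0 ST arrays at embryonic days E16.5, E17.5 and E18.5, with 3 samples per day. All samples came from untreated C57BL/6N fetuses, and gestational age was the only factor varied by design. Each sample was a pool of 10 to 21 lungs taken from 2 litters. The litters also differed between days, and their part cannot be told apart from that of age. The cells had been gated as CD45-/Epcam-/CD31+/Vegfr3+/Lyve1+/Pdpn+, which is meant to keep cells with lymphatic surface markers and to exclude leukocytes and epithelium. With litters pooled, the spread between samples was that between pools and not between single fetuses.

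Guanylate-binding proteins (GBPs) and immunity-related GTPases (IRGs) are among the genes that interferons induce most strongly in mouse cells. Interferons bind receptors that signal through Janus kinases to transcription factors. These act on gamma-activated sites (GAS) and on interferon-stimulated response elements (ISRE), and the complex that binds the ISRE contains Stat2 and Irf9. Interferon regulatory factors also bind the ISRE. The resulting GTPases gather on the vacuoles of intracellular parasites and bacteria and take part in their destruction. Among the IRGs, Irgm1, Irgm2 and Igtp (also called Irgm3) are regulators that sit on the membranes of the host cell and hold the effector IRGs inactive, whereas Iigp1 (Irga6) and Ifi47 (Irgd) belong to the effector group. Gbp2 and Gbp5 carry a lipid anchor added by protein prenylation, and Gbp5 has also been tied to inflammasome assembly in mouse macrophages.

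Promoters of the members are shown first because the family is defined by its response to interferon, which the choice of genes by name did not test. RefSeq promoter windows (build GRCm38.p6, 250 bases before to 50 after each start) were used for 8 of the 10 members, and none was used for *Gbp4* and *Iigp1*. The ISRE core was searched on both strands as GAAA, any 2 bases and GAAA again, which reads as TTTC, any 2 bases and TTTC where it lies on the opposite strand. It was found for 7 of the 8 members, against 3.99% of the 27025 genes with a window. *Gbp3* has 2 windows in the table, and the second held neither core. The shorter GAS core TTCNNNGAA was found for 4 of the 8 (*Gbp5*, *Gbp7*, *Igtp* and *Irgm2*), against 9.55% of genes, and those 4 held both cores, as did 0.540% of genes. The *Ifi47* window held neither. A match is only a description of the letters and not evidence of binding. The stretch around each ISRE core is printed from 5′ to 3′ on the strand of the gene, with every match to either core in capitals.
Gbp2: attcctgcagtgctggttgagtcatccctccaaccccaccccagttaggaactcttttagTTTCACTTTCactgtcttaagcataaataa
Gbp3: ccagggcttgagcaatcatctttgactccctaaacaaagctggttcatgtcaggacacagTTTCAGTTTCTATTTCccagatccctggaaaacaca
Gbp5: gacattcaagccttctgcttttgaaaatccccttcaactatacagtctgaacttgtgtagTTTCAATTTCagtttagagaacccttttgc
Gbp7: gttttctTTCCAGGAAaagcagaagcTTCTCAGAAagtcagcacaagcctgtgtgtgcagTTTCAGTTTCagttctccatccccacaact
Igtp: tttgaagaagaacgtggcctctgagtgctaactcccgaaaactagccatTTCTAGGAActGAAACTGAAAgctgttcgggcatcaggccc
Irgm1: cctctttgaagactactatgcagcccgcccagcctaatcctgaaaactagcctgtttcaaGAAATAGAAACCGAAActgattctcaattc
Irgm2: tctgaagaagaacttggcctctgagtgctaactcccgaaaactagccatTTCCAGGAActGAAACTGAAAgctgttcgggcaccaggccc

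The *Gbp2* stretch lies at chr3:142620544-142620633 on the plus strand and holds 1 ISRE core, 59 bases before the start. The *Gbp3* stretch, chr3:142559939-142560034 (plus), holds 2 cores that overlap. The *Gbp5* stretch, chr3:142496709-142496798 (plus), holds 1 ISRE core 165 bases before the start, the farthest of the 7 genes, and both of its GAS cores lie outside the printed bases. In *Gbp7*, chr3:142530223-142530312 (plus), 2 GAS cores precede the ISRE core. The *Irgm1* stretch, chr11:48871421-48871510 (minus), again holds 2 overlapping ISRE cores. *Igtp*, chr11:58199462-58199551 (plus), and *Irgm2*, chr11:58214853-58214942 (plus), are neighbours on the chromosome, and in each the GAS core stands just before the ISRE core. Their printed stretches were equal at 86 of 90 bases. With positions counted from 1 at the 5′ end and the *Igtp* base given first, the differences were T2C, G14T, T53C and T83C. The third of these falls inside the capitals of the GAS core, at a position that the search left free. In gene order, *Gbp5*, *Gbp7*, *Gbp3*, *Gbp2b* and *Gbp2* follow each other on chromosome 3, *Gbp4* lies between *Gbp9* and *Gbp10* on chromosome 5, *Irgm1*, *Ifi47*, *Igtp* and *Irgm2* lie on chromosome 11, and *Iigp1* lies on chromosome 18. GBP genes of 1 cluster are close copies, and whether the array's probes tell them apart was not tested.

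Values are given as log2 array values, on which a difference of 1 is a doubling. The medians of the 9 arrays ran between 3.79 and 3.91, and a gene below them was taken as near background, as no detection calls were used. Of 25206 genes, 14096 exceeded the median of at least 1 array and were tested. The E17.5 samples stood between the other days on the first principal component (22.4% of variance), but E17.5 replicate 2 stood apart with the highest score on the second (129.8 against -84.2 to 37.9 in the other 8) and the lowest *Prox1*, the transcription factor that defines lymphatic identity (4.11 against 5.02 to 5.89). It was kept. The tests over the 3 days and between neighbouring days are also given without it, but the correlations between genes are not. *Lyve1* (10.35 to 11.28), *Pecam1* (10.98 to 11.42) and *Flt4*, which encodes Vegfr3 (7.90 to 8.62), were strongly expressed throughout. *Pdpn* rose at E18.5 (log2 change over E16.5 1.46, FDR *q* = 0.0149 by limma). *Ptprc*, which encodes the excluded CD45, was below the array median except in E18.5 replicate 1 (3.93). The transcript of the excluded *Epcam* was at 4.56 to 6.07, above the array medians in every sample.

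All 10 GTPase genes rose at E18.5 relative to E16.5. Their log2 changes ran from 1.55 to 3.17, or 2.94-fold to 9.02-fold, with a median of 1.81, while the median over all tested genes was -0.04. By limma, with *q* values adjusted over all tested genes, 10 of 10 passed an FDR *q* of 0.05 as higher, against a background of 3.77% of tested genes. Every E18.5 sample lay above every E16.5 sample for each of the 10, which held for 11.9% of tested genes. In sorted cells measured in bulk, more expressing cells and more RNA per cell cannot be told apart.

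Within the GBPs, *Gbp2*, which is among the GBPs that reach the vacuole of *Toxoplasma* in mouse cells, read 6.78, 6.37 and 6.39 at E16.5, 7.73, 7.35 and 7.49 at E17.5, and 7.52, 8.39 and 8.35 at E18.5. *Gbp3*, its close relative on chromosome 3, read 5.87, 5.95 and 5.82 at E16.5, 7.25, 6.20 and 6.90 at E17.5, and 7.59, 7.85 and 7.95 at E18.5. In both genes the E17.5 samples were all above the E16.5 samples, but for *Gbp2* the E18.5 replicate 1 sample fell within the E17.5 range. The log2 change of E18.5 over E16.5 was 1.57 ± 0.25 (SE, *q* = 0.0136) for *Gbp2* and 1.92 ± 0.13 (*q* = 0.00189) for *Gbp3*, both by limma.

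*Gbp4* had the largest change of the 10 genes. It read 3.24, 3.58 and 3.56 at E16.5, 5.71, 2.78 and 5.50 at E17.5, and 6.10, 7.11 and 6.71 at E18.5. It was therefore below the array median in all 3 E16.5 samples and in E17.5 replicate 2, and above it in the other 2 E17.5 samples and in all of E18.5. The fitted log2 change of E18.5 over E16.5 was 3.17 ± 0.25 (SE, *q* = 0.00233 by limma). Counted from the array medians in place of the low E16.5 values, the E18.5 mean of 6.64 was 2.83 higher, or at least 7.13-fold.

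*Gbp5*, the GBP tied to inflammasome assembly, read 4.43, 3.93 and 4.19 at E16.5, 5.46, 4.47 and 5.24 at E17.5, and 5.32, 5.95 and 6.71 at E18.5. *Gbp7*, which in mice has been tied to the delivery of NADPH oxidase and autophagy proteins to vacuoles, read 5.96, 6.58 and 5.69 at E16.5, 7.48, 6.41 and 7.07 at E17.5, and 7.34, 8.08 and 8.26 at E18.5. E18.5 replicate 1 was the lowest E18.5 sample for each of the 5 GBPs, and for *Gbp2*, *Gbp5* and *Gbp7* it lay below E17.5 replicate 1. The log2 changes of E18.5 over E16.5 were 1.81 for both genes, with an SE of 0.33 and *q* = 0.0207 for *Gbp5* and an SE of 0.30 and *q* = 0.0155 for *Gbp7* (limma). These were the widest errors among the 10.

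The regulatory IRGs came next. *Igtp* read 5.83, 5.29 and 5.50 at E16.5, 6.78, 5.27 and 6.22 at E17.5, and 7.35, 7.14 and 6.83 at E18.5. *Irgm1*, which in mice is required for resistance to mycobacteria, read 6.98, 6.85 and 6.78 at E16.5, 7.89, 6.50 and 7.86 at E17.5, and 8.52, 7.98 and 8.77 at E18.5. *Irgm2* read 5.12, 4.72 and 4.94 at E16.5, 6.12, 4.41 and 6.05 at E17.5, and 6.29, 6.34 and 6.97 at E18.5. In all 3 genes each E18.5 sample exceeded each sample of the earlier days, and E17.5 replicate 2 was below every E16.5 sample. Their changes were close to each other, at 1.57 ± 0.19 for *Igtp* (*q* = 0.00598), 1.55 ± 0.20 for *Irgm1* (*q* = 0.00711) and 1.61 ± 0.21 for *Irgm2* (*q* = 0.00693; log2, SE, E18.5 over E16.5, limma).

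Of the effector IRGs, *Iigp1* read 5.45, 5.41 and 6.0 at E16.5, 7.50, 5.17 and 6.54 at E17.5, and 8.30, 8.18 and 8.27 at E18.5. Its E18.5 samples lay within 0.12 of each other, while its E17.5 samples spread over 2.33. *Ifi47* read 6.55, 5.90 and 5.71 at E16.5, 7.58, 6.22 and 6.50 at E17.5, and 7.70, 8.08 and 7.99 at E18.5. For both genes the E18.5 samples were above all others, and the E17.5 samples overlapped those of E16.5. The log2 change of E18.5 over E16.5 was 2.63 ± 0.17 (SE, *q* = 0.00189) for *Iigp1*, or 6.20-fold, and 1.87 ± 0.23 (*q* = 0.00624) for *Ifi47*, or 3.65-fold (limma).

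**Figure D1:**
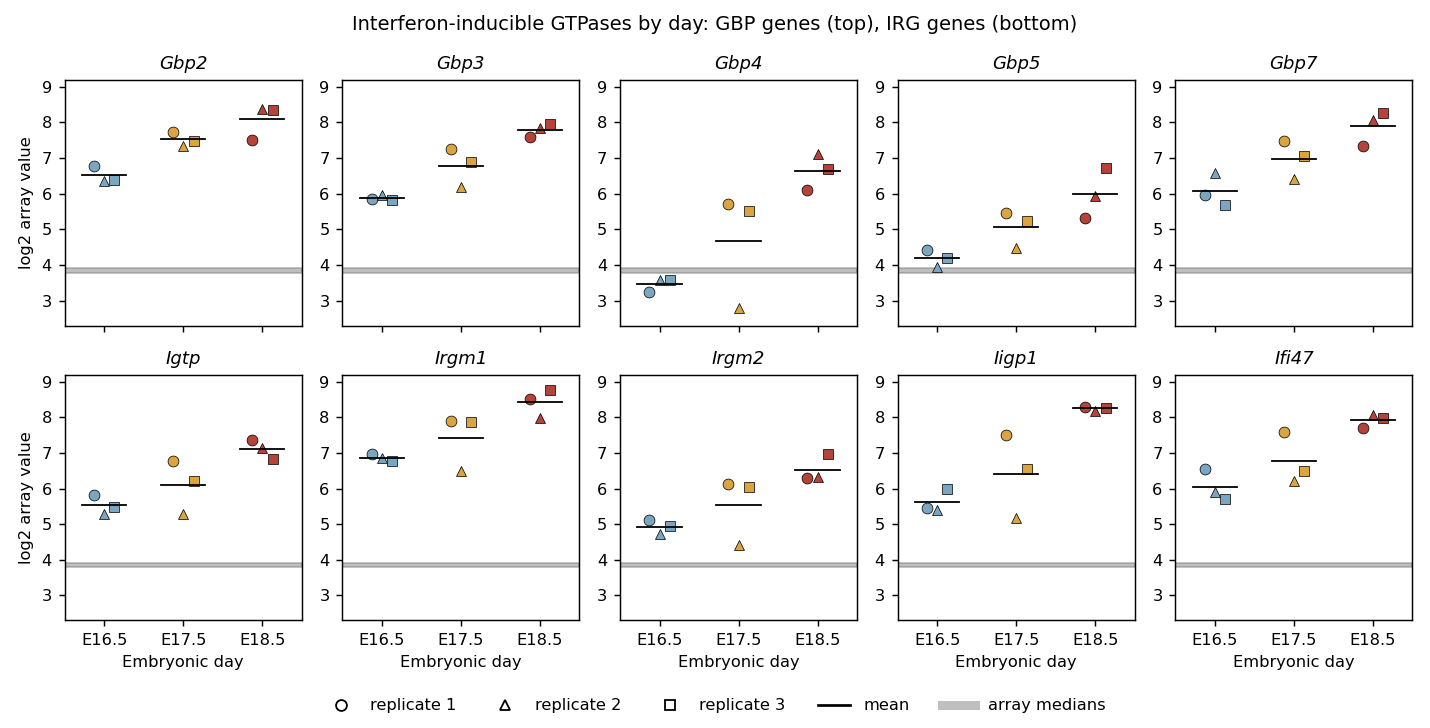
Log2 array values of the 10 GTPase genes (vertical axes) by embryonic day (horizontal axes), with GBP genes in the upper row and IRG genes in the lower; symbols mark replicates 1 to 3, black bars the mean of each day and the grey band the medians of the 9 arrays. Every E18.5 point lies above every E16.5 point, and the triangle of E17.5 replicate 2 is the lowest E17.5 point in each panel.

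**Figure D2:**
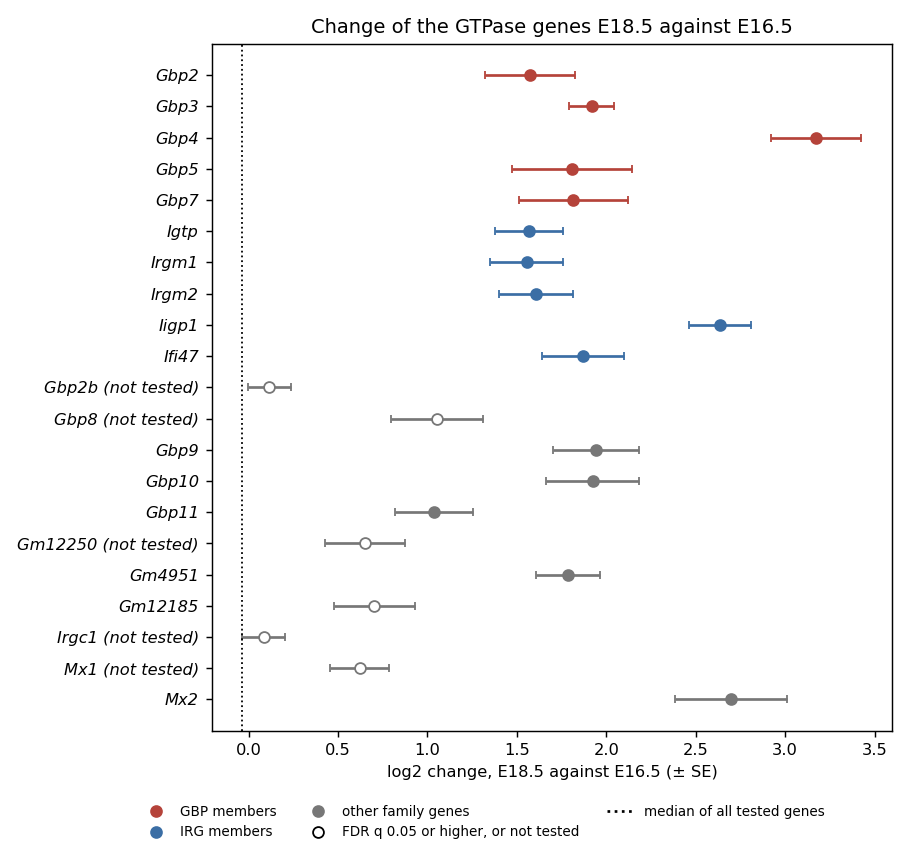
Log2 change of E18.5 over E16.5 (horizontal axis, ± SE from limma, 3 samples per day) for the members and for 11 other genes of the family; filled points passed an FDR q of 0.05 and the dotted line is the median over all tested genes, -0.04. The members lie between 1.55 and 3.17, and the open points include genes that stayed below the median of every array and were not tested.

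Leaving out each sample in turn ended the calls of *Gbp2*, *Gbp5* and *Gbp7* in some fits, and those of the other 7 genes in none. Without E16.5 replicate 3, or without E18.5 replicate 2, these 3 genes no longer passed and 7 of 10 calls were left. *Gbp5* and *Gbp7* were lost without E16.5 replicate 1, and *Gbp2* and *Gbp5* without E16.5 replicate 2. The *q* values of the lost calls were between 0.0509 and 0.0893 by limma, and the direction was the same throughout.

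Over the 3 days, every member had its lowest mean at E16.5, its middle mean at E17.5 and its highest at E18.5. The limma F test across the days called 9 of 10 at an FDR *q* of 0.05, against 9.09% of tested genes, with *q* between 0.00307 for *Gbp3* and 0.0441 for *Irgm1*. *Irgm2* did not pass (*q* = 0.0700). No member passed between neighbouring days. For E17.5 against E16.5, 0 of 10 passed, with log2 changes of 0.55 (*Irgm1* and *Igtp*) to 1.20 (*Gbp4*) and *q* of 0.109 to 0.509 by limma, where 0 of all tested genes passed as higher. At an unadjusted *p* of 0.05, 4 of 10 did (*Gbp2*, *Gbp3*, *Gbp5* and *Gbp7*), against 5.44% of tested genes. For E18.5 against E17.5, 0 of 10 passed, against 1.18% of tested genes, with changes of 0.56 (*Gbp2*) to 1.97 (*Gbp4*) and *q* of 0.0611 to 0.244 by limma, and all 10 had an unadjusted *p* under 0.05, against 8.56%. The later step minus the earlier step ran from -0.45 (*Gbp2*) to 1.06 (*Iigp1*), and 0 of 10 passed (0 of all tested genes), also at an unadjusted *p* of 0.05, where 4.63% of tested genes were higher and 3.48% lower (limma, *q* of 0.749 to 0.999). That the steps differed in size was thus not shown for any member. The F test depended on single samples. It called 4, 4 and 3 of 10 without E16.5 replicates 1, 2 and 3, it called 5 and 2 without E18.5 replicates 1 and 2, and it called all 10 without E17.5 replicate 2. Over all tested genes it called 659 to 1364 with 1 sample left out, against 1281 with all samples.

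How E17.5 overlapped the other days is given as a description. Every E17.5 sample was above every E16.5 sample for 3 members, all GBPs (*Gbp2*, *Gbp3* and *Gbp5*), against 8.19% of tested genes. For *Gbp4*, *Gbp7*, *Igtp*, *Irgm1*, *Irgm2* and *Iigp1* the overlap with E16.5 came from E17.5 replicate 2 alone. Without that sample only *Ifi47* overlapped, with E17.5 replicate 3 at 6.50 and E16.5 replicate 1 at 6.55. Every E18.5 sample was above every E17.5 sample for 7 members, namely the 5 IRGs with *Gbp3* and *Gbp4*, against 8.37%. A difference between the families was not tested.

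E17.5 replicate 2 was the lowest E17.5 sample for 10 of 10 members. It was so for 37.6% of tested genes. For *Gbp2* and *Ifi47* it lay nearer to replicate 3 than replicate 1 did, and for the other 8 genes it lay farther from replicate 3 than replicate 1 did. Each E17.5 value was placed on the span between a gene's E16.5 mean and its E18.5 mean, as a percentage of that span. Replicate 1 lay at 65.7% to 81.9% over the members, with a median of 73.1%, and replicate 3 at 23.7% to 70.3%, with a median of 56.7%. Replicate 2 lay at -32.3% to 53.2%, with a median of -3.92%, so that it was close to E16.5 for most of the family. It was below the E16.5 mean for 5 members (*Gbp4*, *Igtp*, *Irgm1*, *Irgm2* and *Iigp1*), against 53.2% of tested genes. *Gbp2* was the exception, at 53.2% of the way.

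The other 522 genes that rose at E18.5 over E16.5 were placed on the same span. Their median positions were 42.8%, 19.8% and 37.4% in E17.5 replicates 1, 2 and 3, so the median of the members stood above theirs in replicates 1 and 3 and below theirs in replicate 2. It was outside their quartiles in replicate 1 (28.1% to 63.2%) and inside them in replicate 2 (-6.01% to 42.0%) and replicate 3 (12.2% to 62.8%), and the difference was not tested. In replicate 2, 29.5% of them were below the E16.5 mean, against 5 of the 10 members. On the first principal component over all genes, replicate 2 (6.49) lay between replicate 1 (-11.1) and replicate 3 (11.2). E17.5 replicate 2 also had the lowest *Prox1* and the widest spread of relative log expression (interquartile range 0.254, against 0.142 to 0.242 in the other samples), and the part of these in its low GTPase values was not tested.

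**Figure D3:**
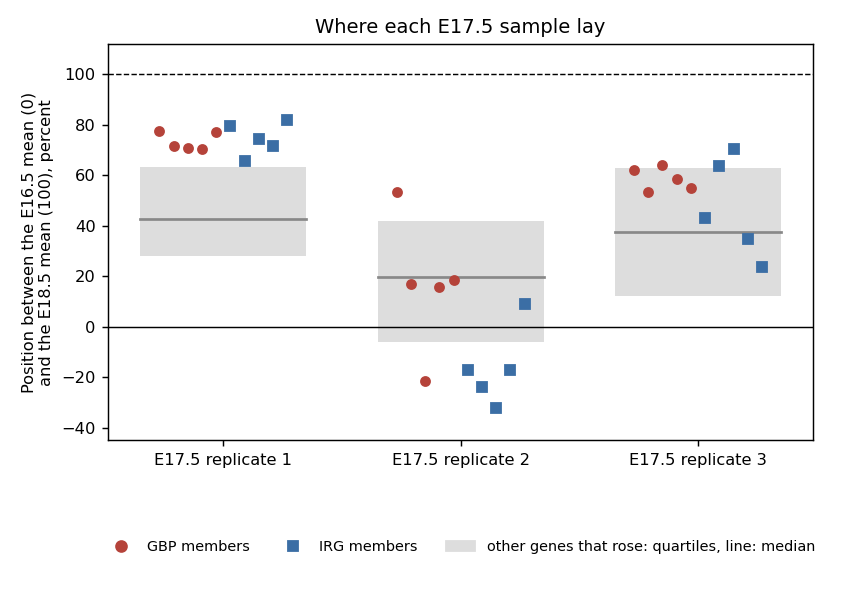
Position of each E17.5 sample (horizontal axis) between the E16.5 mean (solid line) and the E18.5 mean (dashed line), in percent of that span (vertical axis), for each member (circles GBPs, squares IRGs), over the quartiles and median of the 522 other genes that rose (grey). Members lie at 65.7% to 81.9% in replicate 1 and at -32.3% to 53.2% in replicate 2.

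Leaving out E17.5 replicate 2 moved the 2 steps in opposite directions. The log2 changes of E17.5 over E16.5 had a median of 1.16 without it, against 0.83 with it, and they ran from 0.96 to 2.14. *Gbp4* had the change of 2.14 in place of 1.20. For E18.5 over E17.5 the median was 0.63 in place of 1.01, with *Gbp4* at 1.03 in place of 1.97 and *Irgm2* at 0.44 in place of 1.01. No member passed in either step without it (lowest *q* 0.0661 and 0.109 by limma). Without E17.5 replicate 1, 3 members passed at E18.5 over E17.5 (*Gbp3*, *Iigp1* and *Ifi47*). Over all tested genes, the count called as higher in that step ran from 6 to 420 with 1 sample left out, against 166 with all samples.

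The members varied together. Over the 9 samples, Pearson's r between pairs of members ran from 0.77 (*Gbp2* with *Irgm1*) to 0.98, with a median of 0.92 over 45 pairs, a figure that the shared rise over the days sets in large part. After the mean of each day was taken away it ran from 0.18, again *Gbp2* with *Irgm1*, to 0.94, with a median of 0.66. These are descriptions over samples that share their arrays, with no test. They include E17.5 replicate 2, the lowest E17.5 sample for every member, and were not computed without it. The tested genes whose 9 values followed the members' mean deviation most closely were *Zc3hav1* (r = 0.981), *Ifi44* (0.980), *Pmp22* (0.976), *Spry4* (0.976), *Csf3* (0.971), *Sgk1* (0.970), *Gm20559* (0.970) and *Ppp1r2* (0.969). Of 14086 genes compared, 124 had r over 0.9. *Ifi44*, known as interferon-induced, read 5.96, 5.86 and 5.22 at E16.5, 7.92, 5.66 and 7.60 at E17.5, and 8.39, 8.48 and 8.50 at E18.5. Its low E17.5 replicate 2 is part of what chose it, since all 9 samples entered the correlation. *Csf3*, a cytokine gene, was below the array median in every E16.5 and E17.5 sample and above it in only 2 E18.5 samples. Its values were thus near background throughout (3.57, 4.06 and 3.99 at E18.5).

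Further genes of the GTPase family were read from a list of 15, of which 11 were on the arrays and 6 exceeded an array median. Of these 6, 5 rose at E18.5 over E16.5, against 3.77% of tested genes, and 0 fell. The median log2 change over the 6 was 1.85. *Gbp9* (log2 change 1.94, *q* = 0.00631) and *Gbp10* (1.92, *q* = 0.00814) flank *Gbp4* on chromosome 5, and *Gbp11* changed by 1.04 (*q* = 0.0310, limma). *Gbp9* read 9.21, 8.02 and 8.88 in the E17.5 samples, and 7.64, 7.64 and 7.09 in the E16.5 samples. The IRG relative *Gm4951* changed by 1.79 (*q* = 0.00347) and *Mx2*, a dynamin-like antiviral GTPase, by 2.70 (*q* = 0.00533, limma). *Gbp11*, *Gm4951* and *Mx2* were below the array medians at E16.5, and from those medians *Mx2* at E18.5 was at least 2.96-fold higher and *Gm4951* at least 1.55-fold higher, while the E18.5 mean of *Gbp11* was itself below them. *Gm12185* had a log2 change of 0.70 that did not pass (*q* = 0.0984). E17.5 replicate 2 was again the lowest E17.5 sample for 6 of 6.

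The remaining family genes on the arrays stayed near background. *Gbp2b*, *Gbp8*, *Gm12250*, *Irgc1* and *Mx1* were below the median of all 9 arrays and were not tested. *Gbp2b* lies between *Gbp3* and *Gbp2* on chromosome 3, and its RefSeq window holds the same ISRE core letters as that of *Gbp2*. It read 2.34, 2.39 and 2.34 at E18.5, and 2.04, 2.34 and 2.34 at E16.5. *Irgc1*, an IRG known from testis rather than from interferon responses, stayed at 1.99 to 2.35 over all 9 arrays. Both had overlapping E18.5 and E16.5 values. The other 3 did not overlap, with each E18.5 sample above each E16.5 sample, as for 11.9% of tested genes. *Gbp8* read 3.56, 3.63 and 2.76 at E18.5 and 2.14, 2.07 and 2.58 at E16.5. *Gm12250* read 2.73, 2.88 and 3.60 at E18.5 and 2.38, 2.51 and 2.39 at E16.5. *Mx1*, an antiviral relative of *Mx2*, read 2.17, 2.28 and 2.40 at E18.5 and 1.90, 1.34 and 1.76 at E16.5. With all these values below the array medians, no fold is given.

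Interferons and their receptors, the upstream end of the pathway, gave no call. Of 12 listed genes, 11 were on the arrays and 8 were tested, and 0 rose and 0 fell at E18.5 over E16.5 (median log2 change 0.05, with 0 of the 8 under an unadjusted *p* of 0.05 by limma). Of all tested genes, 11.1% were higher and 16.9% lower at that unadjusted *p*. *Ifnl3*, a type III interferon (change 0.29, *q* = 0.270), and *Ifnar1*, a subunit of the type I receptor (-0.29, *q* = 0.305), came closest. *Ifng* and *Ifnb1* were below the median of all 9 arrays, whereas *Ifna4* (4.33 to 6.05), *Ifnl2* (4.75 to 5.57) and *Ifnl3* (3.97 to 4.64) were above it on all 9. The receptor genes *Ifngr1*, *Ifngr2*, *Ifnar1* and *Ifnar2* were at 7.44 to 8.80 in all samples, well above the array medians.

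Genes downstream of the receptors rose in part. Of 11 signal transducers, all tested, 4 rose and 0 fell at E18.5 over E16.5 (median log2 change 0.74), where 3.77% of tested genes rose. *Irf7*, a transcription factor that amplifies interferon production, changed by 2.55 (*q* = 0.00530), *Batf2* by 1.89 (*q* = 0.0294), *Stat2* by 1.03 (*q* = 0.00699) and *Irf9* by 0.74 (*q* = 0.0497, limma). *Stat2* read 7.83, 7.79 and 7.94 at E18.5, against 6.67, 7.06 and 6.74 at E16.5. The groups were separate, and at E17.5 *Stat2* read 7.65, 6.76 and 7.48, low again in replicate 2. *Irf1*, a factor of the interferon gamma response, had a log2 change of 0.97 that did not pass (*q* = 0.0975). Among 7 feedback inhibitors, 2 rose, against 3.77% of tested genes, and 0 fell (median 0.32). They were *Usp18*, which blocks the type I receptor (2.83, *q* = 0.00208), and *Socs3* (1.07, *q* = 0.0228, limma).

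Response genes of both interferon types were counted as well. Of 12 genes commonly read as interferon gamma responses, 10 were tested, and 3 rose and 0 fell at E18.5 over E16.5 (median log2 change 0.79), against 3.77% of tested genes that rose. They were the chemokine *Cxcl10* (2.05, *q* = 0.00761), the peptide transporter *Tap1* (1.37, *q* = 0.0297) and the checkpoint ligand *Cd274* (1.27, *q* = 0.0126, limma). *Cd274* was below the array medians at E16.5, and from those medians its E18.5 mean was at least 1.28-fold higher. Of 14 genes read as type I responses, 12 were tested, 10 rose and 0 fell (median 1.93), against the same 3.77%. The largest changes were those of *Rsad2* (2.90, *q* = 0.0146), *Ifit1* (2.83, *q* = 0.00310), *Ifi44* (2.77, *q* = 0.00198) and *Oasl2* (2.54, *q* = 0.00208, limma). The 2 lists share inducers with the GTPases and with each other, so the name of a list does not identify an interferon. E17.5 replicate 2 was the lowest E17.5 sample for 9 of the 12 tested type I genes, against 37.6% of tested genes. *Ifit1* was among them, at 4.32, 3.97 and 4.15 in E17.5 replicates 1, 2 and 3. It was below the array medians at E16.5, and from those medians its E18.5 mean was at least 4.89-fold higher.

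Genes whose products act with the GTPases gave no call. Of 16 partners and effectors (the autophagy conjugation genes that load GTPases on vacuoles, and inflammasome genes), 13 were tested, and 0 rose and 0 fell at E18.5 over E16.5 (median log2 change 0.10, with 2 of 13 higher and 1 of 13 lower at an unadjusted *p* of 0.05 by limma, against 11.1% and 16.9% of tested genes). *Map1lc3a* (0.59, *q* = 0.0713) and *Atg5* (-0.40, *q* = 0.127) had the smallest *p* values, in opposite directions. Of 5 prenylation genes, 0 passed (median -0.20, with 1 of 5 lower at an unadjusted *p* of 0.05, against 16.9%), and *Fntb*, a farnesyltransferase subunit, was nearest at -0.50 (*q* = 0.0572, limma).

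Markers of other cell types were read beside the GTPases. Of 9 macrophage and monocyte markers on the arrays, 6 were tested and 0 rose or fell at E18.5 over E16.5 (median log2 change 0.25, with 0 of 6 under an unadjusted *p* of 0.05 by limma, where 11.1% of tested genes were higher), while *Adgre1*, *Fcgr1* and *C1qa* were below the median of every array. The mean level of that list was 3.62 to 4.10 at E16.5, 3.73 to 3.77 at E17.5 and 3.72 to 4.55 at E18.5. The E18.5 sample with the highest macrophage mean, replicate 1, had the lowest GTPase mean of its day (7.20 against 7.51 and 7.68). It was lowest for the GBP mean (6.77, 7.48 and 7.59 in replicates 1, 2 and 3) but not for the IRG mean (7.63, 7.54 and 7.77). The part of macrophage RNA was not tested. Of 8 T and NK cell markers, 6 were below the median of every array, and 0 of the 2 tested passed, with or without adjustment (limma). Platelet markers had a median change of 1.42 with 0 of 5 passing and 3 of 5 higher at an unadjusted *p* of 0.05 (limma, against 11.1% of tested genes). Their mean in E18.5 replicates 1, 2 and 3 was 8.42, 7.64 and 6.11. That order was opposite to that of the GBP mean but not to that of the IRG mean, and the part of platelet RNA was not tested. Of 6 lung fibroblast markers 0 passed, with 1 higher at an unadjusted *p* of 0.05 (limma, against 11.1%). Of 6 blood endothelial markers *Car4* (log2 change 3.62, *q* = 0.00347) and *Vwf* (0.89, *q* = 0.0234) rose and *Plvap* fell (-0.76, *q* = 0.0402, limma). Of all tested genes, 3.77% rose and 6.21% fell. *Car4* changed more than any member, and it read 7.17, 6.14 and 7.09 at E17.5, lowest in replicate 2. That sample was the lowest of E17.5 for 4 of the 6, against 37.6% of tested genes. The mean level of the blood endothelial list was 8.01 to 8.35 at E16.5, 8.25 to 8.63 at E17.5 and 8.62 to 8.79 at E18.5. Among its genes, *Emcn* was at 10.31 to 10.94 over all samples, near the level of *Lyve1*. The part of blood endothelial RNA was not tested. Of 6 lymphatic markers only *Pdpn* rose.

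Some epithelial markers rose as well at E18.5 over E16.5. Of 5 alveolar type I markers, 4 rose, with a list mean of 6.55 to 7.0 at E18.5 and 4.83 to 5.23 at E16.5. Of 7 alveolar type II markers, 2 rose, with a list mean of 6.93 to 7.24 at E18.5 and 5.43 to 6.61 at E16.5. *Sftpc*, a type II marker that did not pass (log2 change 0.70, *q* = 0.344 by limma), was at 9.07 to 11.26 over all samples. Of 4 tested airway markers 1 rose, *Scgb1a1* (4.06, *q* = 0.00347 by limma), which was at 7.40 to 9.06 at E18.5. Of all tested genes, 3.77% rose. *Ager*, a defining type I gene, read 9.35, 9.48 and 9.44 at E18.5, against 6.58, 6.98 and 7.43 at E16.5. At E17.5 the type I list stood at 5.54, 5.05 and 4.87 in replicates 1, 2 and 3 and the members' mean at 6.95, 5.48 and 6.54. Replicate 1 was the highest in both, while the lowest was replicate 3 for the type I list and replicate 2 for the members. The part of epithelial RNA in the E18.5 values was not tested.

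**Figure D4:**
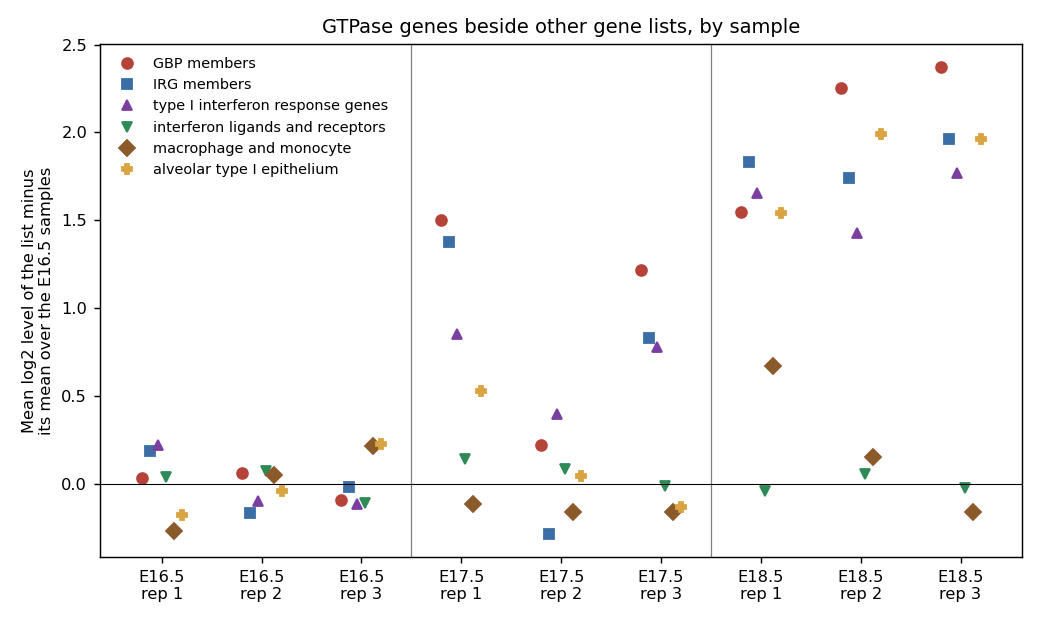
Mean log2 level of 6 gene lists in each of the 9 samples (horizontal axis), less the mean of the list over the E16.5 samples (vertical axis, log2); each point is 1 list in 1 sample. GBPs, IRGs, type I response genes and alveolar type I markers are all high at E18.5, ligands and receptors stay near 0, and at E17.5 the GTPases are high in replicates 1 and 3 only.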

How the data were processed

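Sorted cells were profiled with 1 array per sample. The authors deposited gene-level log2 values, made by Robust Multiarray Average with affy (version 1.36.1) in R (version 2.15.1) on an Entrez Gene probe mapping, and these log2 values were used as deposited. RMA equalises the distribution of values across arrays and compresses differences of dim genes. Entrez numbers were named through RefSeq tables (23740 of 25206 genes). The members and gene lists were chosen with earlier results of these data known, and so were the alternatives. Linear models were fitted to all genes with limma (version 3.58.1) in R (version 4.3.3), E18.5 against E16.5 on the 6 arrays of those days and all other tests on the 9 arrays. Benjamini-Hochberg adjustment covered the 14096 genes that exceeded the median of 1 or more arrays, with calls at an FDR *q* under 0.05. The code was tested on simulated data. Beyond the members, genes were named by rule. For the interferon, partner and prenylation lists, at most 4 called genes with the largest change were named. Where none was called, the 2 with the smallest *p* were. All measured family genes, the sort markers, and the 8 genes best correlated with the members were also named. Cell type lists were given as counts and levels, and not every called marker was named. *Irf1*, *Ifng*, *Ifnb1*, *Ifna4*, *Ifnl2*, the 4 receptor genes, *Ager*, *Emcn*, *Sftpc*, *Scgb1a1* and the markers below every array median were added for their roles after their values were seen. Alternatives were other filters, normalizations, weights and variance models, a replicate block, E18.5 against E16.5 fitted on all 9 arrays, and leaving out each sample. A gene of the signal transducer list is not reported here and was left out of its counts. The number of arrays limits the precision.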

Additional observations from a re-analysis of the deposited data

How the results depend on the processing

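The count of members that rose at E18.5 over E16.5 was 10 under all other filters, normalizations, weights and variance models, and 7 to 10 with 1 sample left out. Their median log2 change of 1.81 ranged from 1.66 to 2.00 with 1 sample left out. The F test over the 3 days called 9, against 6 to 9 under the other settings and 2 to 10 with 1 sample left out. At E18.5 over E17.5, 0 were called, but 1 (*Gbp3*, *q* = 0.0497 by limma) after a second quantile normalization, and 0 to 3 with 1 sample left out. No member was called at E17.5 over E16.5, or for the difference of the steps, under any setting, and no member changed direction in any comparison of days. The labels do not say whether replicate numbers pair the samples. Of 9 same-numbered pairs, 2 had a correlation of deviations over 0.1. This cannot decide it, because deviations from a mean of 3 samples depend on each other. With the replicate number as a block, 10 members were called at E18.5 over E16.5 and 8 over the 3 days. Counts over all genes moved more. At E18.5 over E16.5 there were 532 higher and 875 lower genes, and 173 to 580 higher and 217 to 877 lower with 1 sample left out. The fewest were found without E16.5 replicate 3. With arrays centred on their medians 1337 were lower, and with no filter 532 were lower. Under the other settings, which kept every sample, 357 (no filter) to 738 were higher. At E17.5 over E16.5, 21 genes were lower, but 0 with the replicate block, 1 with no filter, 5 with a trended robust variance, 48 with centred arrays and 93 with array weights, which also called 34 as higher, and 0 to 34 with 1 sample left out. At E18.5 over E17.5, 166 were higher, 87 with no filter, 101 with the replicate block, and 6 to 420 with 1 sample left out. *Gbp4* at E16.5 was near background, where low signal limits its fold change.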
